A study of Homo sapiens with 6 samples.

Results

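Replication-dependent histone genes encode the bulk histones H1, H2A, H2B, H3 and H4 that package newly copied DNA. They were taken here as all genes with the symbols H2AC, H2BC, H3C or H4C and a number, or H1-1 to H1-6. The annotation holds 69 such genes, and 57 of them were measured by a probe set that named no other gene, out of 18417 genes measured in that way. Each of the 57 had 1 such probe set. The other 12 (H2AC7, H2AC18, H2AC19, H2BC15, H2BC18, H3C4, H3C6, H3C13, H3C14, H3C15, H4C11 and H4C12) shared all their probe sets with other genes and were not analysed here. The 57 comprised 6 H1, 14 H2A, 16 H2B, 8 H3 and 13 H4 genes. On chromosome 6 lie 49 of them, in the cluster called HIST1, while 7 lie on chromosome 1 (5 in HIST2 and 2 in HIST3) and 1, H4C16, on chromosome 12.

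The cells were THP-1, a human line grown from a monocytic leukaemia, profiled on 6 Affymetrix expression arrays. Of these arrays, 3 held RNA of THP-1 cells given 200 nM PMA, a phorbol ester and protein kinase C activator, for 3 days and then left without it for 3 days. The other 3 held RNA of unstimulated THP-1 cells. Both groups come from this single line, and the medium of both was RPMI supplemented with FBS (10%), glutamate (2.5 mM) and 2-mercaptoethanol (0.05 mM).

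Cells make these histones mainly in S phase, in step with DNA synthesis. Their short, intronless genes give mRNAs that end in a conserved stem-loop in place of a poly(A) tail. The stem-loop is bound by SLBP and the 3' end is cut with the help of the U7 particle, and the mRNAs decay when DNA synthesis stops. Some of the genes are known to give longer, polyadenylated transcripts as well, and these are known from cells that have left the cell cycle and differentiated. PMA is known to drive THP-1 cells out of the cell cycle towards a macrophage-like state.

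Each value is a log2 intensity after RMA. Array medians were 6.10 to 6.17 on PMA arrays and 6.20 to 6.25 on unstimulated arrays, so every PMA median was the lower. Arrays of a group correlated at 0.988 to 0.995 (Pearson's r across probe sets), and arrays of different groups at 0.958 to 0.968. PMA array 3 and unstimulated array 1 stood somewhat apart: 259 and 120 genes there differed by more than 1 log2 unit from both other arrays of the group, against 1 to 39 genes on each other array. Of 8 monocyte and macrophage markers measured alone, 5 were higher with PMA, 1 was lower (LYZ, the secreted lysozyme, at -2.76 on the log2 fold change scale) and 2 did not pass, and the median level of the 8 was 10.8 to 11.1 on PMA arrays and 9.06 to 9.69 on unstimulated arrays. None of 8 markers of other cell types passed the test, and their median level was 4.67 to 4.76 on PMA arrays and 4.42 to 4.51 on unstimulated arrays. The labels do not say whether separate cultures were used, so each p-value reflects array-to-array spread that may be technical.

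The histone genes were lower in PMA-treated cells as a group, with H2BC12 standing far out in the other direction. Of the 57 genes, 38 (66.7%) fell, 2 (3.51%) rose and 17 did not pass the test, at an adjusted p of 0.05 by limma with Benjamini-Hochberg adjustment over all 18417 genes. Over all genes tested, 13.2% were lower and 13.2% higher by the same rule. H4C7, 1 of the 2 that rose, lay below the lower quartile on all 6 arrays. Its call was lost without some single arrays. All 3 PMA arrays lay below all 3 unstimulated arrays for 45 of the 57 genes, against 22% of all genes, and above them for 2 genes, against 19.2% of all genes. The median log2 fold change, PMA minus unstimulated, was -0.64 for the histone genes (1.56-fold lower) and -0.03 for all genes. The range ran from -1.33 for H4C3 to 1.99 for H2BC12, and 9 genes were below -1. Without PMA array 3 and unstimulated array 1 together, a fit that was not planned, 41 fell, 2 rose and the median was -0.64. In RNA from whole cultures, fewer cells making a histone mRNA and less of it per cell cannot be told apart. Of all genes called, 50.1% were higher, and this share was 61.8% when each array was centred on its median. The histone counts were then 36 lower and 2 higher, and the histone median was -0.56.

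**Figure D1:**
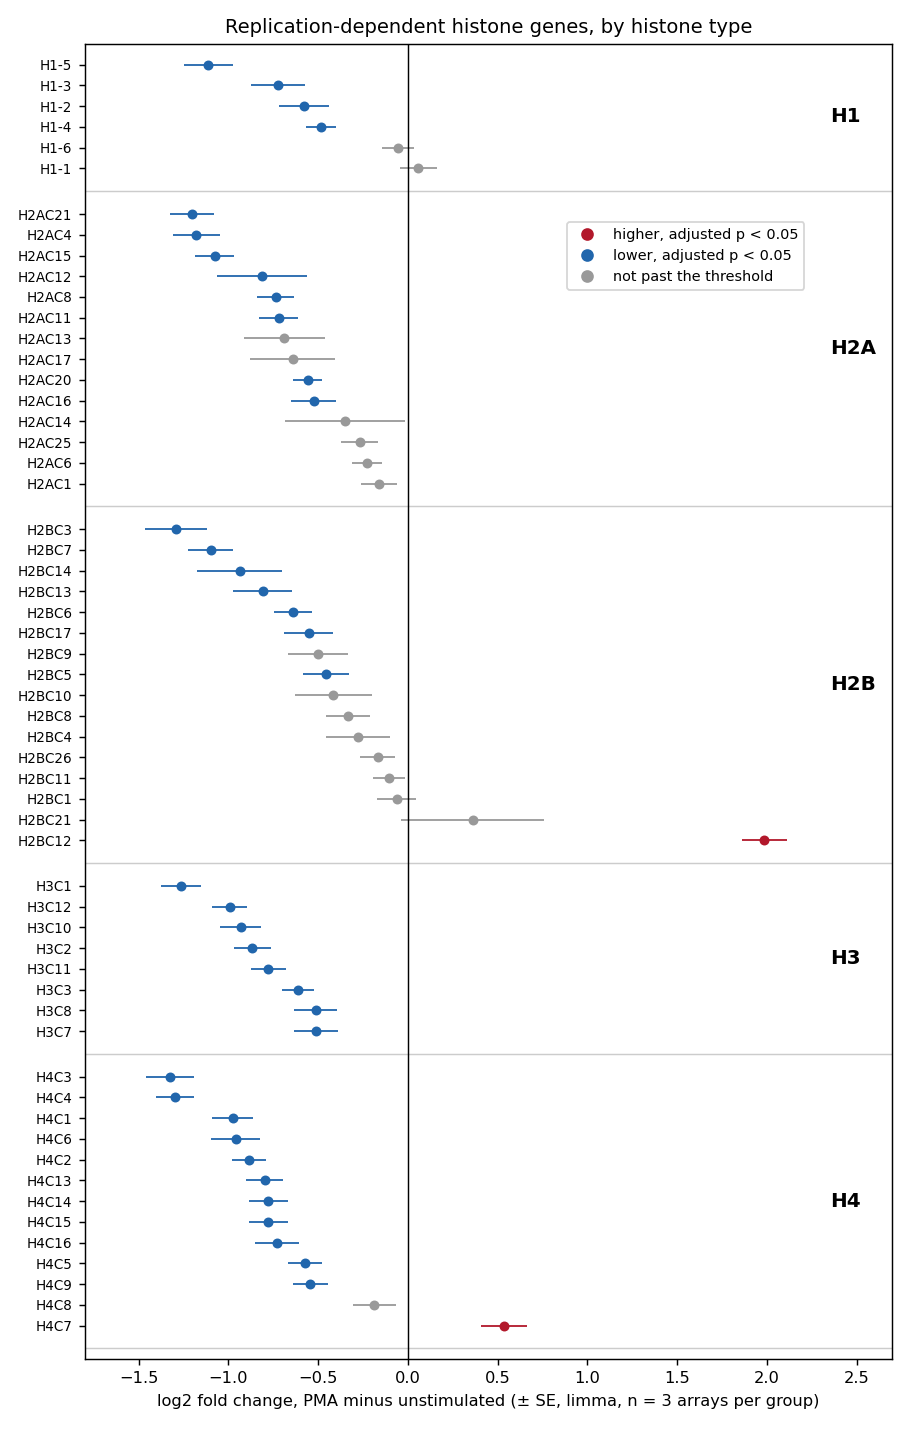
Log2 fold changes of the 57 histone genes (PMA minus unstimulated, x axis, with standard errors, n = 3 arrays a group), grouped by histone type and ordered within a type. All 8 H3 genes and 11 of 13 H4 genes lie to the left in blue, and H2BC12 stands alone at 1.99 on the right.

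Histone H4 genes, whose products form the H3-H4 core of the nucleosome, included the gene with the most negative value, H4C3. Of 13 H4 genes, 11 fell, 1 rose and 1 did not pass the test. Their median log2 fold change was -0.78, beside -0.82 for H3. H4C3 had log2 values of 9.72, 9.55 and 9.55 on the PMA arrays and 11.18, 10.91 and 10.71 on the unstimulated arrays. The highest PMA array was well below the lowest unstimulated array. The log2 fold change was -1.33 ± 0.13 (SE; adjusted p = 0.000319), or 2.51-fold lower. H4C4 measured 6.95, 6.70 and 6.88 on the PMA arrays and 8.25, 8.12 and 8.05 on the unstimulated arrays, again without overlap (log2 fold change -1.30 ± 0.11, adjusted p = 0.000116). The other H4 genes that fell lay between -0.98 for H4C1 and -0.54 for H4C9. H4C14 and H4C15 had equal values on all 6 arrays and count as 1 measurement, which leaves 56 separate measurements among the 57 genes. H4C8 did not pass (-0.19 ± 0.12, adjusted p = 0.316), and its groups overlapped.

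H4C7 was the H4 gene that rose. It encodes a variant H4 whose protein differs from the one that the other H4 genes share. Its log2 values were 4.38, 4.08 and 4.02 on the PMA arrays and 3.79, 3.49 and 3.59 on the unstimulated arrays. The groups did not overlap, but all 6 values were below the lower quartile of their array (4.46 to 4.57), so this gene was dim in both groups. The log2 fold change was 0.54 ± 0.13 (adjusted p = 0.0183). The call was lost without PMA array 1 (adjusted p = 0.0628), unstimulated array 2 (0.0714) or unstimulated array 3 (0.0655). Dim on all 6 arrays were also H1-6, H2AC1 and H2BC1, which are known as testis histone genes.

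The promoters of H4C7 and of H4C4 are set side by side. They show the start regions of the dim H4 gene that rose and of an H4 gene that fell. They are the 250 bases before the annotated start, from RefSeq on GRCh38.p14, both on the minus strand. Capitals mark TATAAA, the TATA box that places RNA polymerase, searched on both strands. H4C7 lies at chr6:26246997-26247246 and H4C4 at chr6:26189113-26189362.
H4C7 promoter: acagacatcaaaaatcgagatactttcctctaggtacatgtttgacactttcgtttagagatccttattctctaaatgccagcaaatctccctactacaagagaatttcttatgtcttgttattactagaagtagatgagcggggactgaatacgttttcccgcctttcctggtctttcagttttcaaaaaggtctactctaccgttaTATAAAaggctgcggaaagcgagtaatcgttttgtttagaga
H4C4 promoter: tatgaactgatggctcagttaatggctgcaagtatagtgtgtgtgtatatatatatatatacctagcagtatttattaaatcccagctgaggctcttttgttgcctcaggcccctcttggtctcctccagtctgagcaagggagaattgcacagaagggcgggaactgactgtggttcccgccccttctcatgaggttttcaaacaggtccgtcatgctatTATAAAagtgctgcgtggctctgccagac
H4C7 carried TATAAA 42 to 37 bases before its start, and H4C4 carried it 29 to 24 bases before its start. Neither window held CCAAT, which was found in 3 of 11 H4 windows.

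Histone H3, the partner of H4, fell as a whole type among the genes measured: all 8 H3 genes passed the test downward, with log2 fold changes from -1.27 to -0.51 and a median of -0.82. H3C1 measured 7.57, 7.38 and 7.57 on the PMA arrays and 8.94, 8.67 and 8.71 on the unstimulated arrays. The gap between the groups was several times the spread within either. Its log2 fold change was -1.27 ± 0.11 (adjusted p = 0.00017). H3C11 and H3C2 were bright, averaging 11.02 ± 0.07 and 10.31 ± 0.10 with PMA and 11.79 ± 0.12 and 11.18 ± 0.12 in unstimulated cells (SD, n = 3 each). H3C7 and H3C8 were the least changed H3 genes, at -0.51 each. H3C7 lost its call without PMA array 1 (adjusted p = 0.0755) or PMA array 2 (0.0674). H3C8 lost its call without PMA array 1 (0.057), PMA array 2 (0.0525), unstimulated array 2 (0.0591) or unstimulated array 3 (0.061).

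Histone H2A genes, whose products pair with H2B on the outside of the nucleosome core, were all below 0, and 8 of 14 passed the test, all lower (median -0.66). H2AC21 measured 10.50, 10.34 and 10.66 on the PMA arrays and 11.87, 11.69 and 11.55 on the unstimulated arrays. The groups were clearly apart, and the log2 fold change was -1.20 ± 0.12 (adjusted p = 0.000356). H2AC4 (-1.18 ± 0.13) and H2AC15 (-1.08 ± 0.11) also fell by more than 1 log2 unit. H2AC8, H2AC11, H2AC12, H2AC16 and H2AC20 fell by less. H2AC12 was near the threshold, with 6.05, 5.18 and 6.20 on the PMA arrays and 6.78, 6.46 and 6.63 on the unstimulated arrays. PMA array 2 was the low one of its group there (log2 fold change -0.81 ± 0.25, adjusted p = 0.0482). That call was lost without PMA array 1 (adjusted p = 0.071), unstimulated array 1 (0.114), unstimulated array 2 (0.0938) or unstimulated array 3 (0.125). H2AC13 and H2AC17 had negative values of similar size, -0.69 and -0.64, with adjusted p of 0.0586 and 0.089. H2AC17 passed without PMA array 1 (adjusted p = 0.0291). H2AC14, H2AC25, H2AC6 and H2AC1 lay between -0.35 and -0.16 and did not pass.

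Histone H2B genes were the most mixed type. Of 16 genes, 7 fell, 1 rose and 8 did not pass the test, with a median of -0.44. H2BC3 measured 8.28, 7.87 and 8.44 on the PMA arrays and 9.74, 9.37 and 9.36 on the unstimulated arrays. All PMA values were below all unstimulated values, and the log2 fold change was -1.29 ± 0.17 (adjusted p = 0.00126). H2BC7 (-1.10 ± 0.13), H2BC14 (-0.94 ± 0.23), H2BC13 (-0.81 ± 0.16), H2BC6 (-0.64 ± 0.11), H2BC17 (-0.55 ± 0.14) and H2BC5 (-0.46 ± 0.13) also fell. The calls of H2BC14, H2BC17 and H2BC5 did not hold with every array left out in turn. H2BC14 lost its call without PMA array 1 (adjusted p = 0.0501) or PMA array 2 (0.0532). H2BC17 lost its call without unstimulated array 2 (0.0773) or unstimulated array 3 (0.0756). H2BC5 lost its call without any array except unstimulated array 1 (0.0599 to 0.114). H2BC9, H2BC10, H2BC8, H2BC4, H2BC26, H2BC11 and H2BC1 lay between -0.50 and -0.06 and did not pass. H2BC8 passed without PMA array 3 (adjusted p = 0.0118).

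H2BC12 was the exception. Its log2 values were 9.90, 9.61 and 9.96 on the PMA arrays and 7.69, 7.94 and 7.88 on the unstimulated arrays. The lowest PMA array was well above the highest unstimulated array. The means were 9.83 ± 0.19 with PMA and 7.84 ± 0.13 in unstimulated cells (SD, n = 3 each), a log2 fold change of 1.99 ± 0.12 (adjusted p = 3.42e-05), or 3.96-fold higher. Under all 18 alternative settings the log2 fold change lay between 1.84 and 2.09, with adjusted p from 1.25e-06 to 0.0078.

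**Figure D2:**
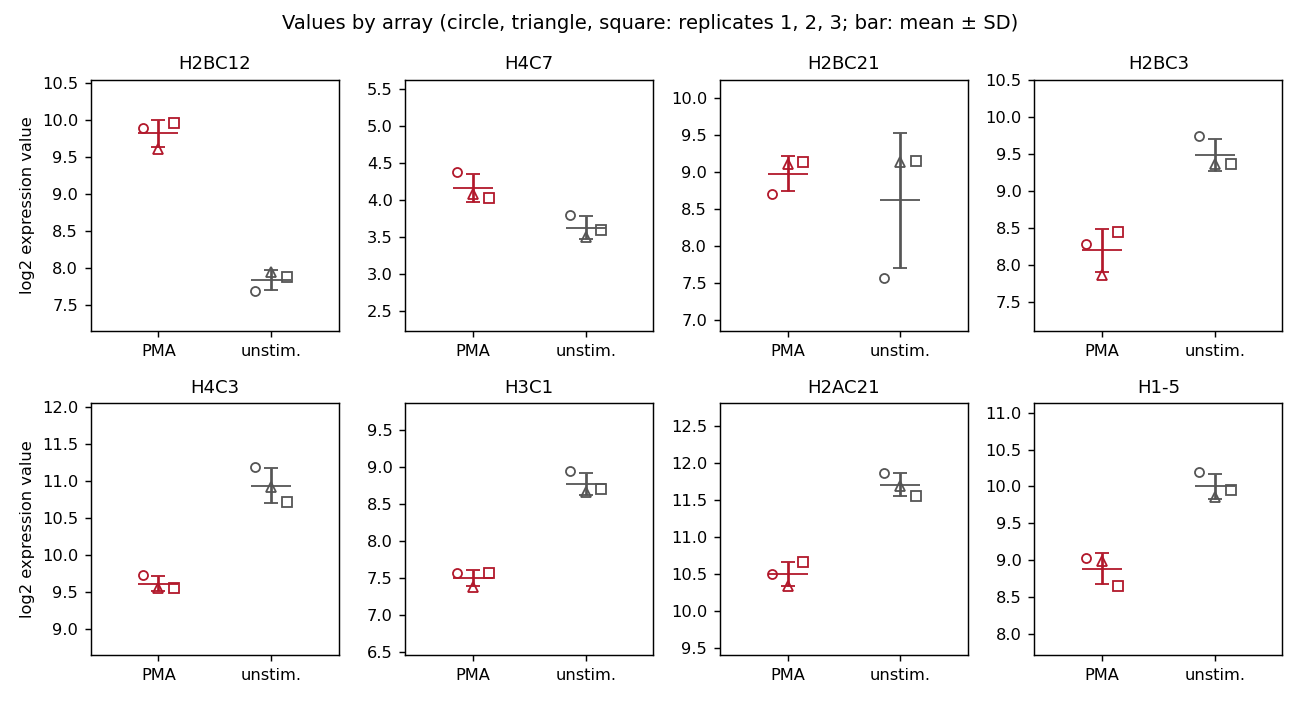
Log2 value on each array (circle, triangle and square for arrays 1, 2 and 3, PMA left and unstimulated right, bars for mean ± SD) for 8 histone genes of each type that rose, fell or overlapped; all panels span the same range but start at different levels. H2BC12 lies near 10 with PMA and near 8 in unstimulated cells, while H4C3, H3C1, H2AC21, H2BC3 and H1-5 lie lower with PMA.

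The promoter of H2BC12 is printed beside that of H2BC3, the H2B gene with the most negative value, because the pair moved in opposite directions within 1 histone type. Both are the 250 bases before the annotated start, from RefSeq on GRCh38.p14, on the minus strand. They lie at chr6:27146859-27147108 for H2BC12 and chr6:26043714-26043963 for H2BC3. Capitals mark matches on either strand of 3 motifs. The first is the TATA box, spelled as before. Another is CCAAT, the box that the factor NF-Y is known to bind. The last is the octamer ATGCAAAT, which the factor POU2F1 is known to bind. Farthest upstream in H2BC12, TATA box matches on opposite strands overlap.
H2BC12 promoter: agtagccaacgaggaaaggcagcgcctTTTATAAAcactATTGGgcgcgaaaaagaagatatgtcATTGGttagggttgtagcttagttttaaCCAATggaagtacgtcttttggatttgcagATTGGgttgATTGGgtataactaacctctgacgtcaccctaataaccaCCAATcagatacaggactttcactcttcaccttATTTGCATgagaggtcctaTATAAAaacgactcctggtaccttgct
H2BC3 promoter: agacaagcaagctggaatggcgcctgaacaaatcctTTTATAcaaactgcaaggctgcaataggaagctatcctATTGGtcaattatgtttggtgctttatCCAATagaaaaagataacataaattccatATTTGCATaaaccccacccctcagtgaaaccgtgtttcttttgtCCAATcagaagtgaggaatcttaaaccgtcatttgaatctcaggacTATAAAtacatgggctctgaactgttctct
The octamer lay 46 to 39 bases before the start of H2BC12 and 120 to 113 bases before that of H2BC3, on the opposite strand in both. TATAAA lay 27 to 22 bases before the start of H2BC12 and 30 to 25 bases before that of H2BC3. Both windows thus held all 3 motifs.

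The same letters were searched in the windows of all 52 histone genes in the RefSeq promoter table, which does not list H2AC12, H3C11, H3C12, H4C1 and H4C3. TATAAA was found in 65.4% of them, against 11.1% of 27305 promoters of all genes. CCAAT was found in 84.6%, against 33.0%, and it was in every H1, H2A, H2B and H3 window listed. The octamer was found in 44.2%, against 1.66%, and it lay in 10 of 13 H2A and 13 of 16 H2B windows and in no H1, H3 or H4 window. Among H2B genes it was in the window of the 1 that rose, 5 of 7 that fell and 7 of 8 that did not pass. TGANTCA, the AP-1 motif, was in 1 histone window (1.92%), that of H3C8, against 6.60% of all promoters. Windows of neighbouring genes that start back to back share bases, so they are not separate sequences.

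H2BC21, another H2B gene with a long annotated span, had a positive value that 1 array decided. It measured 8.71, 9.11 and 9.14 on the PMA arrays and 7.57, 9.14 and 9.16 on the unstimulated arrays. Unstimulated array 1 was the low one, and the other arrays of both groups lay close together. The log2 fold change was 0.36 ± 0.40 (adjusted p = 0.588), and -0.16 (adjusted p = 0.489) without unstimulated array 1. H2BC21 thus cannot be given a direction from these arrays.

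Linker histones H1, which bind the DNA between nucleosomes, fell in 4 of 6 cases, with a median of -0.53. H1-5 measured 9.03, 8.99 and 8.65 on the PMA arrays and 10.20, 9.86 and 9.95 on the unstimulated arrays, with no overlap. Its log2 fold change was -1.11 ± 0.14 (adjusted p = 0.000936). H1-3 (-0.72 ± 0.15), H1-2 (-0.58 ± 0.14) and H1-4 (-0.48 ± 0.08) fell less. H1-4 was the brightest, with 12.31, 12.38 and 12.32 on the PMA arrays and 12.88, 12.80 and 12.79 on the unstimulated arrays. H1-2 lost its call without PMA array 1 (adjusted p = 0.0622), PMA array 2 (0.0617), unstimulated array 2 (0.0701) or unstimulated array 3 (0.0682). The remaining linkers, the testis form H1-6 (-0.06 ± 0.09) and H1-1 (0.06 ± 0.10), did not pass and overlapped between groups.

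Set side by side, the median shift from the unstimulated mean on PMA arrays 1, 2 and 3 was -0.75, -0.89 and -0.77 for H3, and -0.77, -0.77 and -0.73 for H4. It was -0.55, -0.85 and -0.57 for H2A and -0.55, -0.56 and -0.48 for H1. For H2B it was -0.38, -0.49 and -0.43, the smallest shift of the 5 types on each PMA array. The difference between types was not tested, and the types differ in how many genes were measured.

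Along chromosome 6, gaps of over 300 kb without a measured histone gene part the HIST1 genes into blocks, and the testis pair H2AC1 and H2BC1 at the near end was counted apart. In the largest block, 20 of 29 genes fell and 1 (H4C7) rose, with a median of -0.58. In the block holding H2BC12, 3 of 5 genes fell (H2AC11, H2AC12 and H4C9) and H2BC12 alone rose. In the block farthest along, 10 of 13 fell and none rose, with a median of -0.80. Neither gene of the testis pair passed (-0.16 and -0.06). Outside HIST1, 4 of 5 HIST2 genes and H4C16 fell, while the HIST3 pair H2AC25 and H2BC26 (-0.27 and -0.17) did not pass. Among the HIST2 genes that fell, H4C14 and H4C15 count as 1 measurement.

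**Figure D3:**
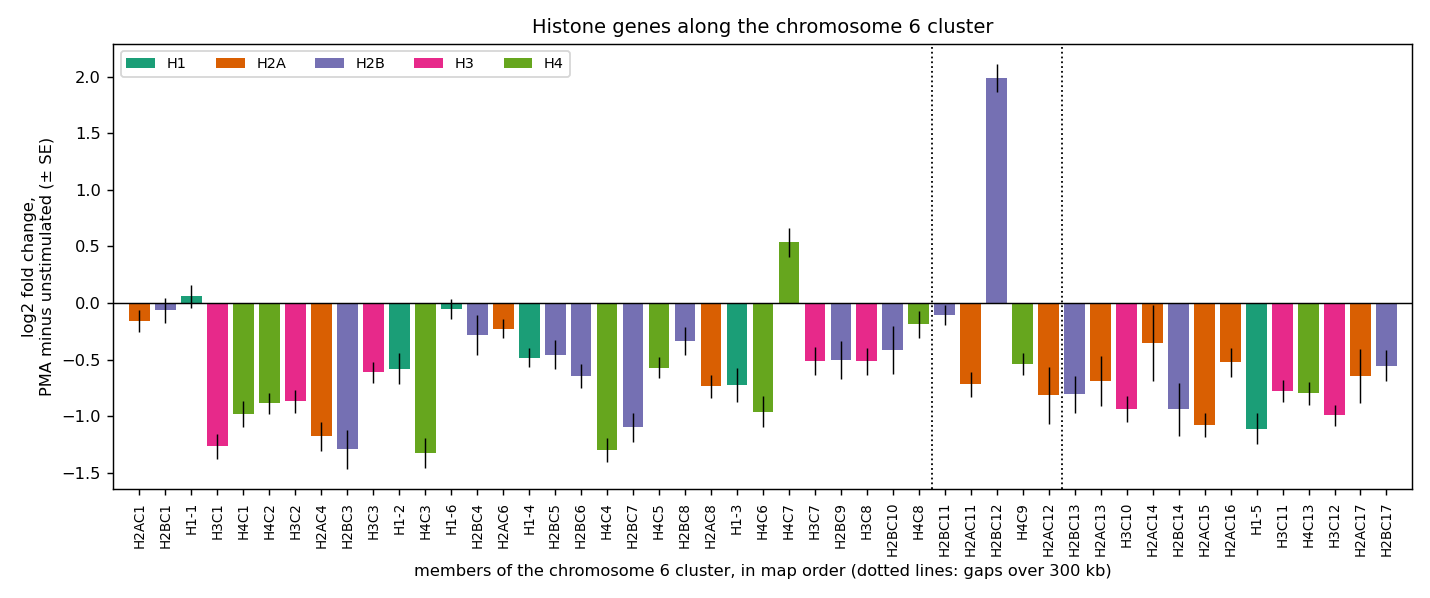
Log2 fold change (PMA minus unstimulated, with standard errors, n = 3 arrays a group) of the 49 HIST1 genes in their order on chromosome 6, coloured by histone type, with dotted lines at gaps of over 300 kb. H2BC12, at 1.99, stands between neighbours that lie below 0.

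The neighbours of H2BC12 lay on the other side of 0. H2BC12 is annotated at chr6:27138293-27146858, a span of 8566 bases, and H4C9 (chr6:27139282-27139678) lies within that span. H4C9 measured 5.98, 5.75 and 5.96 on the PMA arrays and 6.39, 6.46 and 6.47 on the unstimulated arrays. It was lower on every PMA array than on any unstimulated array (log2 fold change -0.54 ± 0.10, adjusted p = 0.00508). H2AC12, whose annotated start coordinate is 248 bases beyond the end coordinate of H2BC12, was at -0.81, a call that was lost without PMA array 1 (adjusted p = 0.071), unstimulated array 1 (0.114), unstimulated array 2 (0.0938) or unstimulated array 3 (0.125). H2AC11, on the other side, fell (-0.72 ± 0.11, adjusted p = 0.00237), and H2BC11 beside it did not pass (-0.10 ± 0.09, adjusted p = 0.474).

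Many H2A and H2B genes start back to back and share 1 stretch of promoter. The promoter table gave 11 such pairs, with starts 194 to 248 bases apart, and 9 pairs had both genes measured alone. In 3 pairs only the H2A gene fell: H2AC8 with H2BC8, H2AC11 with H2BC11, and H2AC20 with H2BC21. In 3 pairs only the H2B gene fell: H2AC13 with H2BC13, H2AC14 with H2BC14, and H2AC17 with H2BC17. In the other 3 neither passed, and in none of these 9 pairs did both pass. H2BC12 and its neighbour H2AC12, 248 bases apart by their annotated coordinates, are not among the pairs, because the promoter table does not list H2AC12. Their log2 fold changes were 1.99 and -0.81, in opposite directions and both past the test, with the call of H2AC12 lost without PMA array 1 (adjusted p = 0.071), unstimulated array 1 (0.114), unstimulated array 2 (0.0938) or unstimulated array 3 (0.125). These counts turn on the threshold, since H2AC13 and H2AC17 passed with the replicate number as a block (adjusted p = 0.0152 and 0.013), and the difference within pairs was not tested. The H2A gene had the more negative value in 6 of 9 pairs.

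**Figure D4:**
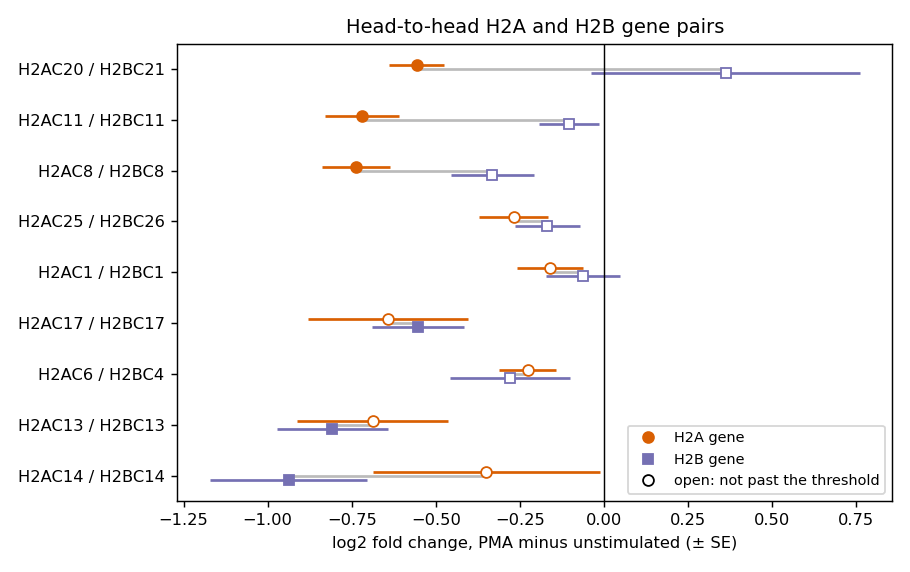
Log2 fold changes (PMA minus unstimulated, with standard errors, n = 3 arrays a group) of the H2A and the H2B gene in 9 pairs that start back to back, with open symbols for genes that did not pass the test. The widest gap is between H2AC20 at -0.56 and H2BC21 at 0.36, and the value of H2BC21 was decided by 1 array.

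Genes known to give polyadenylated transcripts were then set apart (H1-2, H2AC6, H2BC4, H2BC5, H2BC12 and H2BC21). Of these 6, 2 fell, 1 rose and 3 did not pass, with a median of -0.25. Of the other 51, 36 were lower and 1 higher, with a median of -0.72. Over all genes tested, 13.2% were lower and 13.2% higher, and 1 higher of 6 is near that share. The calls of the 2 that fell, H1-2 and H2BC5, were each lost without some single arrays. For example, the adjusted p was 0.0622 for H1-2 without PMA array 1 and 0.114 for H2BC5 without unstimulated array 3. Of the 36 lower calls outside this set, 5 were also lost without some single array. An annotated length over 1000 bases marked an overlapping set of 5 (H2BC4, H2BC5, H2BC12, H2BC21 and H4C15), of which 2 fell and 1 rose (median -0.28). The 52 shorter genes had 36 lower and 1 higher, with a median of -0.66. H4C14, among the shorter genes, had the same values as H4C15 on all 6 arrays, so 1 measurement counts on both sides. Which transcript form a probe set read was not tested, and H2BC12 holds 1 of the calls in each of these small sets.

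The machinery that makes and degrades histone mRNA was measured for 20 of 22 listed genes. Of these, 4 fell and 2 rose, with a median of -0.09; 3 calls were left without PMA array 1 and 3 without PMA array 3. These counts are near those of all genes, of which 13.2% were lower and 13.2% higher. SLBP, the stem-loop binding protein, did not pass (-0.07 ± 0.11, adjusted p = 0.711), nor did NPAT, the coactivator of histone transcription (0.23 ± 0.11, adjusted p = 0.175), nor LSM10 and LSM11 of the U7 particle (adjusted p = 0.45 and 0.0726). MIF4GD, which links SLBP to translation, measured 7.01, 6.49 and 6.60 on the PMA arrays and 8.81, 8.04 and 8.12 on the unstimulated arrays. All PMA values were lower (log2 fold change -1.62 ± 0.22, adjusted p = 0.00149). HINFP, a factor that binds H4 promoters, fell by 0.48 on the log2 scale (adjusted p = 0.0096). CASP8AP2, a histone pre-mRNA processing factor also called FLASH, was at -0.34 ± 0.09 (adjusted p = 0.0255), a call lost without any array except unstimulated array 2 (0.0538 to 0.0914). TUT7, which adds uridines to RNA ends and takes part in RNA decay, measured 10.23, 10.26 and 10.07 on the PMA arrays and 7.86, 8.27 and 8.48 on the unstimulated arrays. Its groups were far apart, and it rose by 1.98 ± 0.16 (adjusted p = 0.000107).

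Most of the histone genes that are known to be expressed outside S phase did not pass the test. Of 9 measured out of 12 listed, 6 did not pass, 2 fell (H2AZ2 at -0.54 ± 0.09 and H1-10 at -0.45 ± 0.10), 1 rose (MACROH2A2 at 0.51 ± 0.12) and the median was 0.03. Counts this small are near the 13.2% lower and 13.2% higher among all genes. H2AX, H2AZ1 and H3-3B did not pass (0.15, 0.15 and -0.19). All 3 passed in the unplanned fit without PMA array 3 and unstimulated array 1 together (adjusted p = 0.0499, 0.045 and 0.0285). H3-3B also passed without unstimulated array 1 alone (adjusted p = 0.0241). Without PMA array 1 the list had 1 call. The call of H1-10 was lost without PMA array 1 (adjusted p = 0.0553). The call of MACROH2A2 was lost without PMA array 1 (0.0516), PMA array 2 (0.0655), unstimulated array 2 (0.0657) or unstimulated array 3 (0.0672).

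Histone chaperones, which carry histones to DNA, had 5 of 19 lower and none higher, with a median of -0.15. There were 2 calls without PMA array 1, PMA array 2, unstimulated array 2 or unstimulated array 3, and 3 calls without PMA array 3 or unstimulated array 1. Among all genes, 13.2% were lower and 13.2% higher. All 3 PMA arrays lay below all 3 unstimulated arrays for 8 of the 19, against 22% of all genes. Whether the chaperones differ from all genes was not tested. NASP, which holds H3-H4, averaged 8.04 ± 0.08 with PMA and 8.54 ± 0.13 in unstimulated cells (SD, n = 3 each), without overlap between arrays (log2 fold change -0.50 ± 0.10, adjusted p = 0.00956 by limma). CHAF1A, of the factor that deposits histones at replication forks, fell by 0.54 on the log2 scale (adjusted p = 0.0118). ASF1B was at -0.49 ± 0.14 (adjusted p = 0.0374), a call lost without any array except PMA array 3 (0.0544 to 0.119).

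DNA replication genes had 16 of 40 lower and none higher, beside 13.2% lower and 13.2% higher among all genes, with a median of -0.31, beside -0.64 for the histone genes and -0.03 for all genes. CDC7, the kinase that fires origins, measured 6.32, 6.50 and 6.39 on the PMA arrays and 7.58, 7.39 and 7.51 on the unstimulated arrays. That is a gap well beyond the spread within either group (-1.09 ± 0.10, adjusted p = 0.000184). PRIM1, a primase subunit, fell by 0.83 and MCM6, a helicase subunit, by 0.74 on the log2 scale. TYMS, which makes thymidylate, fell by 0.62 (adjusted p = 0.00382). PCNA, the sliding clamp, was at -0.41 ± 0.11 (adjusted p = 0.0241), a call lost without PMA array 1 (0.069) or PMA array 2 (0.076). The calls numbered 9 without PMA array 1, 8 without PMA array 2 and 10 without unstimulated array 3. With each array centred on its median they numbered 9. Whether the histone values follow from how many cells were in S phase was not tested.

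**Figure D5:**
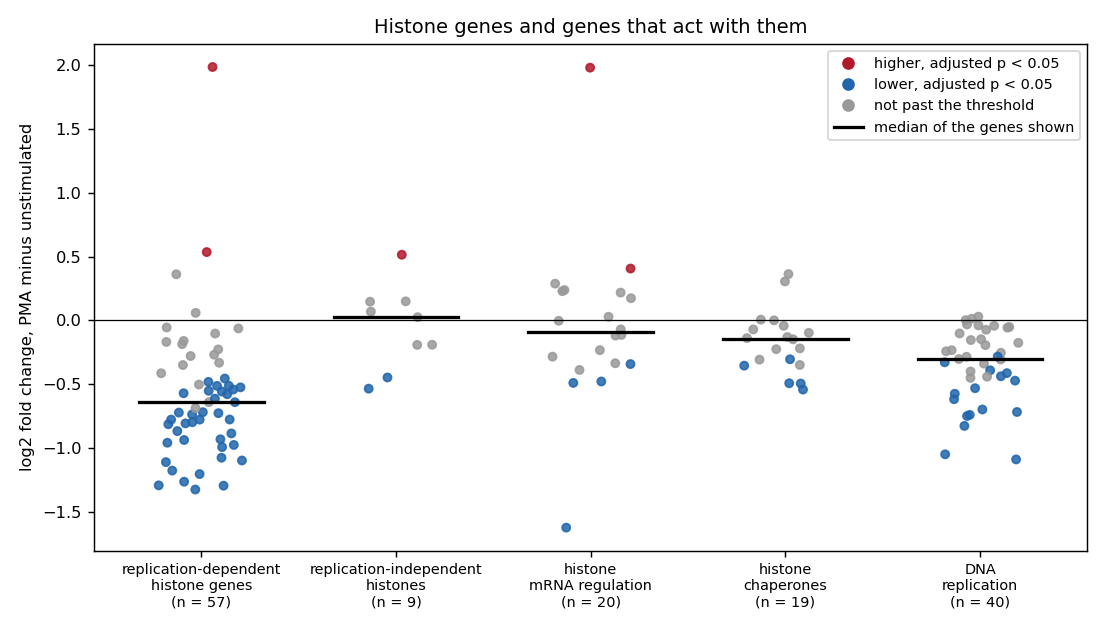
Log2 fold change (PMA minus unstimulated, y axis) of each gene in the histone set and in the 4 other lists, 1 point a gene (red higher, blue lower, grey not past the test), with lines at list medians. The histone genes have the lowest median, -0.64, and the replication genes follow at -0.31.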

How the data were processed

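Total RNA of 6 THP-1 samples was labelled with biotin and read on 1-colour Affymetrix arrays, per the labels' protocols. The authors deposited log2 values, 1 per probe set and array; the submitters' processing notes name RMA and Partek but no version. The RMA method subtracts background, quantile-normalizes and summarises probes, which compresses changes near background. Probes of near-identical histone genes can bind each other's RNA, so values of single copies are uncertain.

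Of 33297 probe sets, 19460 carried 1 symbol, and 19429 of these matched the gene table (GRCh38.p14) by gene ID; 1754 carried several and 12083 were unnamed here. The brightest probe set stood for a gene, by its mean over the 6 arrays. Group was the only term of a linear model over all 6 arrays (lmFit and eBayes of limma 3.58.1, run in R 4.3.3). The total was 7.71 degrees of freedom, part of which eBayes borrows from the spread of all genes. P-values were adjusted by Benjamini-Hochberg over 18417 genes, with a threshold of 0.05. The median standard error was 0.115. The fit was tested on simulated arrays with independent noise and far fewer changed genes than were called here. That checks the code and not the calls. Having 3 arrays a group limits the precision.

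The genes and lists were chosen with earlier results of these data known. Any histone gene could be named; of each other list, up to 4 genes past the threshold (the 3 smallest adjusted p in the commoner direction and 1 in the other) and SLBP, NPAT, CASP8AP2, LSM10, LSM11, H2AX, H2AZ1, H3-3A, H3-3B, PCNA and TYMS. H3-3A was not measured alone, and 1 further gene of the rule is not reported here. Alternatives covered normalization, dim genes, the probe set per gene, the variance model, a replicate block, an adjusted p of 0.01, and each array left out. A fit without PMA array 3 and unstimulated array 1 together was added unplanned, because these arrays stood apart. Promoter windows are RefSeq's, using the first listed start of a gene. Figures were drawn with matplotlib 3.10.9.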

Additional observations from a re-analysis of the deposited data

How the results depend on the processing

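Of 1050 values of single histone genes under the alternatives, 982 kept their side of the threshold, 56 lost and 12 gained a call. None that passed changed sign, but 9 of the 982 changed sign while past the threshold in neither fit. Among the 40 calls, 29 held in every alternative that held the gene. The count of genes that fell was 28 with genes below the median left out, 41 without PMA array 3 and unstimulated array 1, and 33 to 38 with each array left out in turn. The count of histone genes that rose was 1 at an adjusted p of 0.01, with the lowest 25% of genes left out, with genes below the median left out and by the gene-wise test, and 1 to 2 with each array left out, with H2BC12 past the threshold each time. The median was -0.78 with genes below the median left out, which removes low values by construction, and -0.69 to -0.56 with each array left out. All genes past the threshold numbered 4854, against 2824 at an adjusted p of 0.01 and 2843 by the gene-wise test. At 0.01 the counts past the threshold were 3 for histone mRNA regulation, 1 for replication-independent histones, 1 for chaperones and 8 for DNA replication. By the gene-wise test they were 4, 2, 1 and 9, and with each array centred on its median 4, 3, 2 and 9. Chaperones numbered 3 by cyclic loess, 2 with every probe set, 3 with trend and robust variance and 3 with the replicate block. Replication-independent histones numbered 6 without the 2 arrays standing apart. With each array left out, counts ran from 3 to 5, 1 to 4, 2 to 3 and 8 to 16 for the 4 lists. The cause of these shifts was not tested. The replicate block gave 39 lower and 2 higher; same-numbered arrays correlated at 0.18, -0.02 and 0.05 in their deviations, and 3 of 6 arrays correlated best with their own number, so the numbers are not taken to pair arrays.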
